A study of Rattus norvegicus with 29 samples.

Results

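Open chromatin regions (OCRs) that carried a peak in every library of a rat brain ATAC-seq series were examined, here called constitutive OCRs. ATAC-seq uses a transposase to cut accessible DNA and insert sequencing adapters. The members were chosen by peak calls and width: an OCR of the deposited count table belonged if its end minus its start was at least 400 bp and under 2000 bp and it overlapped, by 1 bp or more, a peak in each of the 29 libraries. This rule selected 20270 of 98237 OCRs (20.6%), or 23.0% of the 88077 OCRs of that width. All animals were adult male Sprague-Dawley rats. Each rat was injected intraperitoneally 4 times, every 2 h, either with (+)-methamphetamine hydrochloride at 10 mg/kg (METH) or with saline at 1 mL/kg, and tissue was taken about a day after the last one. There were 4 libraries per treatment from the nucleus accumbens (NAc), from Ammon's horn of the hippocampus (CA) and from the dentate gyrus (DG), while 3 saline libraries and 2 METH libraries came from the subventricular zone (SVZ). NAc and SVZ were tissue punches from one hemisphere, so each library mixes the cell types of its punch or dissection. In such bulk samples, fewer cells of a type and less accessibility per cell cannot be told apart. The region labels were not checked against marker genes, because a gene annotation of the files' genome build was not used here.

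Accessible chromatin marks places where nucleosomes are displaced, mainly at gene promoters, enhancers and sites of the insulator protein CTCF. Promoters of genes that every cell needs and CTCF sites tend to be open in most tissues, while enhancers are more often open in particular cell types. NAc is a striatal region rich in medium spiny neurons, DG and CA are hippocampal fields of granule and pyramidal neurons, and SVZ is a neurogenic niche along the lateral ventricle. A peak in every library therefore selects chromatin that was accessible in all 4 regions and under both treatments.

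OCRs of 400 to under 2000 bp fell into a mode at the full number of libraries and a broad hump at fewer. A peak was found in all 29 libraries for 20270 of them, in 28 libraries for 4066 and in 27 for 2880. The number had a second, lower mode of 3898 OCRs with peaks in 8 libraries. Of the 4066 OCRs with peaks in 28 libraries, 2535 (62.3%) lacked one in an SVZ library. Among them, 1352 (33.3% of the 4066) lacked one only in SVZ saline replicate 3, which had the fewest peaks (50732) and the fewest OCR counts (7.55 M). Another 460 lacked a peak only in SVZ saline replicate 1, and 1 lacked one only in CA METH replicate 3. These near members had a median level of 10.3 counts per 1000000 scaled library counts (CPM) per kb, against 20.6 in the constitutive OCRs. At the width limits, the 3 narrowest members were 400 bp wide, with 12.7 to 17.4 CPM per kb, and 3 OCRs of 398 bp with a peak in every library had 14.6 to 26.6 CPM per kb. The widest member lay just under the upper limit (19.0 CPM per kb) and the narrowest excluded OCR above it was 2001 bp wide (12.1 CPM per kb). In all, 184 narrower and 342 wider OCRs with a peak in every library stayed outside.

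**Figure D1:**
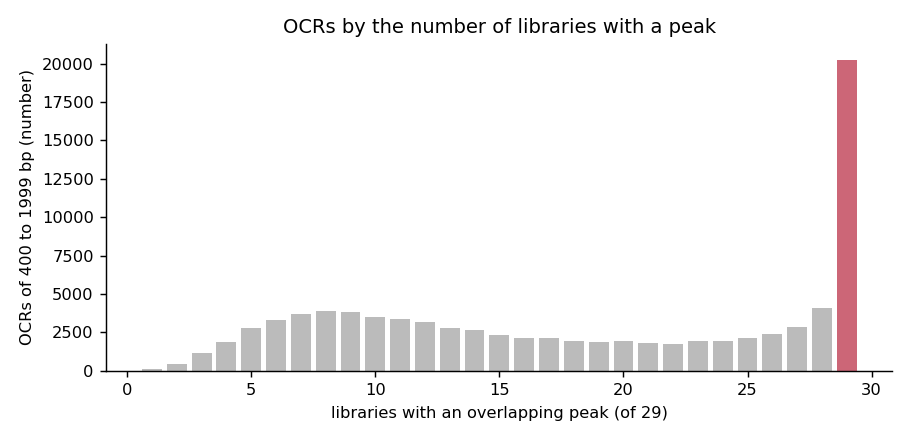
Number of OCRs of 400 to under 2000 bp (y axis) by the number of the 29 libraries with an overlapping peak (x axis). The bar at 29 holds the 20270 constitutive OCRs, and a second mode stands at 8 libraries with 3898 OCRs.

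The constitutive OCRs were wider and carried higher peaks than the other 67807 OCRs of 400 to under 2000 bp, which is described without a test because peak calls chose them. Their median width was 981 bp against 639 bp. Their median level over the 29 libraries was 20.6 CPM per kb (interquartile range 13.3 to 36.4) against 5.78 CPM per kb. Level and membership were closely tied: of the 8808 OCRs in the highest decile by CPM per kb, 8555 (97.1%) were constitutive, and in each of the 2 lowest deciles 0 were. Membership rose with width from 4.71% of OCRs under 600 bp to 73.9% of those of 1500 bp or more. The median fold enrichment of a member's peak over local background, in the middle library, was 10.2 against 5.11 in the other OCRs. The lowest of a member's 29 peaks had a median enrichment of 5.87.

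Peak summits, the points of highest signal, were placed alike across libraries. The summit of the highest peak in a library lay at a median of 8.0 bp from the OCR's median summit position in constitutive OCRs, and at 17.5 bp in the others. In 7491 members (37.0%) all 29 summits fell within 50 bp of their median. Exactly 1 peak was called in every library in 14784 members (72.9%), and more than 1 peak in every library in 2. The median summit stood at 49.6% of the OCR's width from its start, with an interquartile range of 39.2% to 60.2%.

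Members were found on every chromosome of the table. They made up 17.9% of the OCRs of chromosome 6 and 23.8% of those of chromosome 10, the lowest and the highest share among autosomes. On chromosome X, 410 of 1262 OCRs (32.5%) were constitutive, against 20.5% of the 96966 autosomal OCRs. Chromosome Y had 4 members among 9 OCRs. The X-linked members had a median level of 18.1 CPM per kb, below the autosomal 20.7 CPM per kb. The median X-linked level ranged from 17.0 CPM per kb in SVZ saline to 20.1 CPM per kb in DG METH. The median distance from a member to the nearest other OCR was 5477 bp and from the other OCRs 5186 bp. That nearest OCR was itself constitutive for 24.8% of members and for 16.5% of the others.

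The 3 highest and the 3 lowest members show the span of levels. The highest, chr4:77447556-77448678 (rn6), held 1014 CPM per kb, with a lowest value of 729 CPM in NAc saline replicate 4, a median of 1036 CPM and a highest value of 1707 CPM in NAc saline replicate 2. The second, chr1:11906083-11906970, held 417 CPM per kb but had a peak enrichment of only 2.86 to 4.30 in every library, where the first and the third members had at least 13.5 and 14.9. Its libraries ranged from 89.9 CPM in SVZ METH replicate 1 to 578 CPM in SVZ saline replicate 2, with a median of 375 CPM. The third, chr9:82514120-82515120, held 335 CPM per kb and ranged from 250 to 502 CPM around a median of 332 CPM.

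At the low end, chr5:98003179-98004442 held 4.68 CPM per kb, with libraries from 3.58 to 8.86 CPM around a median of 5.73 CPM. The next, chr15:103128527-103129777, held 4.99 CPM per kb (3.10 to 11.2 CPM, median 5.69 CPM), and chr6:8929914-8930886 held 5.34 CPM per kb (2.95 to 7.94 CPM, median 4.92 CPM). All 3 still had peaks with an enrichment of at least 3.74 in every library and at least 36 counts. Over all members and libraries the lowest count was 20, in SVZ saline replicate 3, where the median member had 149 counts. In CA saline replicate 2 the median member had 388 counts.

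Being open in every library did not make the members constant. The ratio of the highest to the lowest of the 8 group means had a median of 1.59, and it stayed under 1.5 in 7882 members (38.9%) but passed 2 in 3884 (19.2%) and 4 in 28. In the other OCRs of 400 to under 2000 bp it passed 2 in 64.5%. The SD between replicates of a group had a median of 0.34 on the log2 CPM scale in members and 0.61 in the others. The sum of squares of log2 CPM was split without allowance for the number of groups in a term. Spread between libraries alone gives each term, here and by animal below, some share, so no share shows an effect by itself. Brain region accounted for 16.9% of the sum of squares of log2 CPM in the members and for 40.6% in the other OCRs. Treatment within a region accounted for 11.6% and 9.52%, and differences between libraries of one group for 71.5% and 49.9%. Of the last share in members, 38.5% of the total separated 2 sets of libraries. The names of the deposited peaks hold 1 of 2 spellings of a name, and both spellings reuse some sample barcodes, so they mark 2 sets. In set 1 were the first SVZ saline library and the libraries numbered 1 and 2 from the other 3 regions, and set 2 held the rest. Whether a set is a preparation or a sequencing run is not stated. The same names hold a number, taken as the animal, that gave 8 animals, each used for several regions. Among the 12 saline libraries of NAc, DG and CA, the animal accounted for 50.1% of the sum of squares in members, of which 39.9% was the library set and 10.2% animals within a set, and region accounted for 12.8%. Among the 12 METH libraries of the same regions the order was the other way, with 28.7% for region and 23.7% for the animal, of which 17.8% was the library set.

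The least variable member over the 29 libraries was chr8:40091495-40092840, which ranged from 35.3 CPM in SVZ saline replicate 3 to 47.9 CPM in CA saline replicate 2 (SD 0.11, log2 CPM). The second was chr7:123086103-123086856, with 31.0 to 48.0 CPM (SD 0.13). The most variable was chr2:1660372-1661164, from 3.91 CPM in SVZ saline replicate 2 to 47.2 CPM in CA saline replicate 3 (SD 1.05), which is also described among the regional differences. In chr17:57087361-57088046, values ran from 5.15 CPM in CA METH replicate 4 to 54.3 CPM in DG METH replicate 1 (SD 0.98).

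Libraries held 7.55 to 19.4 M counts in OCRs, of which 4.38 to 11.7 M lay in members. Members covered 20.6 of 71.7 Mb of OCRs (28.8%) and took 55.8% (CA saline replicate 4) to 74.3% (DG METH replicate 1) of a library's OCR counts. The share differed by library set: the 13 libraries of set 1 ran from 61.0% to 74.3% with a median of 67.3%, and the 16 of set 2 from 55.8% to 70.7% with a median of 59.2%.

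METH and saline were then compared by this share. In DG it was 63.0%, 69.6%, 58.3% and 59.3% in saline replicates 1 to 4 and 74.3%, 70.1%, 57.7% and 70.7% in METH replicates 1 to 4. Of the 4 METH libraries, 3 were above every saline library and METH replicate 3 was below them all. The DG means were 62.5% ± 5.12 for saline and 68.2% ± 7.24 for METH (SD, n = 4 each), a difference of 5.66 percentage points (exact two-sided permutation p = 0.314, adjusted p = 0.8 over 4 regions). It was 5.89 points in set 1 and 5.44 points in set 2. Without METH replicate 3 it was 9.16 points (exact permutation p = 0.0571, the smallest possible with 3 against 4 libraries). Without any other 1 library of DG it was 3.64 to 8.01 points (exact permutation p = 0.229 to 0.571). NAc went from 62.7% ± 3.68 to 64.5% ± 3.85 (SD, n = 4 each, exact permutation p = 0.571, adjusted p = 0.8). CA went from 62.6% ± 7.77 to 61.5% ± 4.53 (SD, n = 4 each, exact permutation p = 0.829, adjusted p = 0.829), with a difference of -5.03 points in set 1 and 2.86 points in set 2. SVZ went from 61.7% ± 3.17 (n = 3) to 59.5% ± 0.595 (SD, n = 2, exact permutation p = 0.6, adjusted p = 0.8), and its METH libraries were both from set 2. With 4 against 4 libraries the smallest possible p was 0.0286, and with 3 against 2 no p under 0.05 was possible. In each region the METH and saline ranges overlapped.

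**Figure D2:**
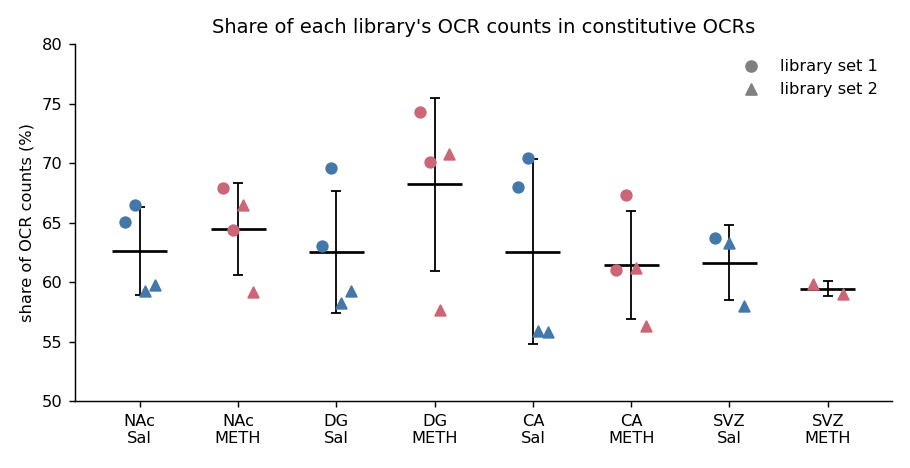
Share of each library's OCR counts that lay in constitutive OCRs (y axis from 50%, percent) by region and treatment, with circles for library set 1, triangles for set 2, and bars for the mean and SD. Within each group of NAc, DG and CA saline libraries the circles sit above the triangles, and METH and saline overlap in all 4 regions.

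Whether METH changed accessibility at single members was tested with edgeR's quasi-likelihood test on all 98237 OCRs. A differentially accessible region (DAR) needed a fold change above 1.5 and a Benjamini-Hochberg adjusted p under 0.001. No member was a DAR in NAc, DG, CA or SVZ, and the share of all OCRs called was 0% in each region. The lowest adjusted p among members was 0.493 in DG and at least 0.9999 elsewhere. DESeq2 called 1 member, in SVZ, where it called 8 of all OCRs (0.00814%), and none in the other 3 regions. The count depended on how unwanted variation was modelled. The study used RUVr, which takes factors from model residuals, with a number of factors not given in the sources used here. With 1 such factor no member was a DAR in any region. With 5 factors, DG had 1738 DARs among members, of which 1580 were more and 158 less accessible after METH, against 4.65% of all OCRs called there. SVZ then had 36 (1 more, 35 less accessible) against 0.057% of all OCRs, NAc 0 against 0.0173%, and CA 0 against 0%.

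At an unadjusted p under 0.05, which makes no allowance for the number of OCRs tested, the split of members between directions differed by region. In DG, 1614 members were more accessible after METH (7.96% of members, against 3.57% of all OCRs) and 343 less accessible (1.69%, against 6.28%). In SVZ, 133 were more (against 1.27% of all OCRs) and 1289 less accessible (6.36%, against 2.2%). The SVZ counts moved with the only set 1 library of the region, saline replicate 1. Without it, 706 members were more (3.48%, against 4.35% of all OCRs) and 703 less accessible (3.47%, against 1.62%). In set 2 alone, 958 were more (4.73%, against 6.74%) and 786 less accessible (3.88%, against 2.67%). With the set as a covariate, less accessible members stayed the majority, with 649 more (3.20%, against 2.61%) and 1580 less accessible (7.79%, against 3.03%). In NAc, 108 were more (against 1.03%) and 19 less accessible (against 1.42%). In CA, 32 were more (against 0.353%) and 30 less accessible (against 0.467%). METH and saline libraries of CA with equal numbers deviated together in all 4 pairs, and those of NAc did so more weakly. They come from different animals, and the labels do not give them as pairs. With the number as a replicate block, 113 CA members were more (0.557%, against 1.7%) and 40 less accessible (0.197%, against 0.428%).

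The counts differed between the library sets, and in NAc and CA the majority direction did too. In DG, 1297 members were more (against 1.62% of all OCRs) and 112 less accessible (against 1.02%) in set 1, but only 10 (against 0.0356%) and 3 (against 0.947%) in set 2. The median log2 fold change of DG members was 0.20 in set 1 (-0.15 for all OCRs) and 0.17 in set 2 (-0.07 for all OCRs). The median SE of members was 0.34 in set 1 and 0.44 in set 2. In NAc, 349 were more (against 3.34%) and 530 less accessible (against 3.63%) in set 1, and 89 (against 0.723%) and 2 (against 1.18%) in set 2. In CA the majority turned, from 455 more (against 7.99%) and 2647 less accessible (against 5.64%) in set 1 to 319 (against 0.651%) and 14 (against 0.609%) in set 2. The counts also moved with single libraries. In DG the members under this p numbered 6972 without METH replicate 3 (34.4%, against 31.2% of all OCRs). Without saline replicate 2 they numbered 5127 (25.3%, against 17.3%). Without METH replicates 1, 2 and 4 they numbered 389 (1.92%, against 3.47%), 1390 (6.86%, against 10.4%) and 522 (2.58%, against 3.596%). Without saline replicates 1, 3 and 4 they numbered 695 (3.43%, against 7.19%), 743 (3.67%, against 6.95%) and 841 (4.15%, against 5.15%). Only without METH replicate 3 or saline replicate 2 were members called more often than all OCRs. In SVZ they numbered 827 without saline replicate 2 (4.08%, against 2.47%) and 1769 without saline replicate 3 (8.73%, against 3.20%). Leaving out a METH library left 1 in SVZ. The median log2 fold change of members was then -0.14 without METH replicate 1 and -0.03 without METH replicate 2. With 1 library left out, NAc had the fewest such members without saline replicate 1, at 78 (0.385%, against 2.25% of all OCRs). It had the most without METH replicate 4, at 280 (1.38%, against 3.399%). CA had the fewest without saline replicate 2, at 18 (0.0888%, against 0.325%). It had the most without saline replicate 4, at 612 (3.02%, against 4.84%). In each of these NAc and CA runs the share of members was below that of all OCRs.

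The split between directions also moved with the scaling. Scaling by the upper quartile of the members alone makes that quartile alike in all libraries. It shifts the members' own fold changes by construction, so it cannot show whether their direction is stable. Under it, DG had 681 more (3.36% of members, against 1.28% of all OCRs) and 1231 less accessible members (6.07%, against 8.18%). SVZ then had 1508 more (against 4.14%) and 1214 less (against 1.6%), CA 150 more (against 0.337%) and 30 less (against 0.245%), and NAc 102 more (against 0.514%) and 47 less (against 0.877%). The median log2 fold change of members, METH over saline, was 0.18 in DG against -0.29 in the other OCRs of 400 to under 2000 bp. It was 0.06 against -0.05 in NAc, -0.04 against 0.07 in CA and -0.09 against 0.04 in SVZ. With the members' own upper quartile the DG median became -0.07 for members and -0.34 for all OCRs, the CA medians 0.03 and 0.05, and the SVZ medians 0.12 and 0.19. The median of members was above that of all OCRs in NAc and DG under every alternative fitted. In CA and SVZ it was not below under every one. In CA it was above in set 2 alone (0.15 against 0.04), without saline replicate 1 (0.025 against 0.0092), without saline replicate 2 (0.055 against 0.0061) and without METH replicate 4 (0.014 against -0.0019). In SVZ it was above with the library set as a covariate (-0.0056 against -0.017). The median of members was within the spread between libraries in each region, the pooled SD of library medians being 0.25 in DG, 0.16 in NAc, 0.27 in CA and 0.13 in SVZ on the log2 CPM scale. Among members of DG the median log2 fold change went up with level, from 0.0035 in the lowest quintile by CPM per kb to 0.28 in the highest. In SVZ it went from 0.05 in the lowest quintile to -0.19 in quintile 4 and -0.15 in the highest. In NAc it stayed between 0.06 and 0.07 in all 5.

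**Figure D3:**
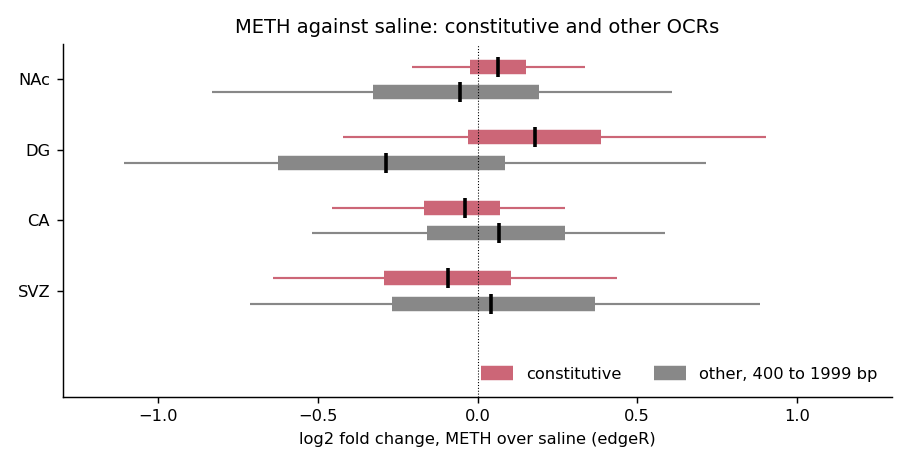
Log2 fold change of METH over saline (x axis, edgeR) for constitutive OCRs (red) and other OCRs of 400 to under 2000 bp (grey) in each region, with the 5th to 95th percentile as a line, the quartiles as a bar and the median as a tick. The median of constitutive OCRs lies above that of the others in NAc and DG and below it in CA and SVZ, and the log2 fold changes of members are more narrowly spread in every region.

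The member with the smallest p in each direction was taken from each region, so these values are chosen extremes and none passed the correction. In DG, chr16:4977757-4978653 had 23.3, 11.6, 10.0 and 10.0 CPM in saline and 3.79, 4.22, 5.91 and 5.24 CPM in METH replicates 1 to 4. All METH libraries were below all saline libraries, and saline replicate 1 stood well above the rest. Its log2 fold change was -1.52 ± 0.30 (SE, edgeR adjusted p = 0.493). The DG member on the other side, chr3:46159065-46160109, had 13.8, 19.1, 15.1 and 14.3 CPM in saline and 42.2, 26.2, 16.4 and 47.2 CPM in METH. METH replicate 3 fell inside the saline range, and the log2 fold change was 1.08 ± 0.29 (SE, edgeR adjusted p = 0.493).

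In SVZ, chr5:173138938-173140515 had 23.5, 32.1 and 23.9 CPM in saline and 11.2 and 14.5 CPM in METH (log2 fold change -1.05 ± 0.22, SE). In the other 3 regions its log2 fold change was between -0.11 and 0.12. The SVZ member on the other side, chr14:4948891-4949782, had 18.8, 7.99 and 8.04 CPM in saline and 24.1 and 34.4 CPM in METH (1.33 ± 0.41, SE). The saline libraries of each did not overlap the METH libraries, of which replicate 2 carries a further tag of unstated meaning in its peak names.

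In NAc, chr4:69935044-69936183 had 7.69, 8.15, 7.09 and 9.09 CPM in saline and 15.4, 15.4, 10.4 and 12.0 CPM in METH, with no overlap (log2 fold change 0.73 ± 0.23, SE). The NAc member on the other side, chr20:3146165-3146951, had 26.3, 17.6, 15.5 and 28.4 CPM in saline and 14.4, 11.9, 13.8 and 10.6 CPM in METH (-0.79 ± 0.28, SE), again with no overlap. Its log2 fold changes were -0.66 in DG, -0.62 in CA and -0.62 in SVZ. The regions share animals, and saline replicates 1 and 4, which are the same animals in NAc, DG and CA, were the 2 highest saline libraries in all 3 (32.8 and 20.9 CPM in DG, 24.4 and 23.0 CPM in CA). Saline replicates 2 and 3 had 14.0 and 16.3 CPM in DG and 12.5 and 10.8 CPM in CA, near the METH libraries.

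In CA, chr1:59202574-59203446 had 5.12, 3.61, 3.92 and 4.41 CPM in saline and 6.56, 10.5, 6.03 and 6.38 CPM in METH, with no overlap (0.78 ± 0.30, SE). For chr19:329013-329961 the CA values were 14.3, 14.4, 20.6 and 24.3 CPM in saline and 15.9, 8.02, 10.1 and 11.7 CPM in METH (-0.69 ± 0.23, SE). METH replicate 1 lay between the saline libraries. This member had a larger log2 fold change in DG, -0.93 ± 0.24 (SE). The difference between the 2 regions was not tested. The edgeR adjusted p of these NAc, CA and SVZ values was at least 0.9999.

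**Figure D4:**
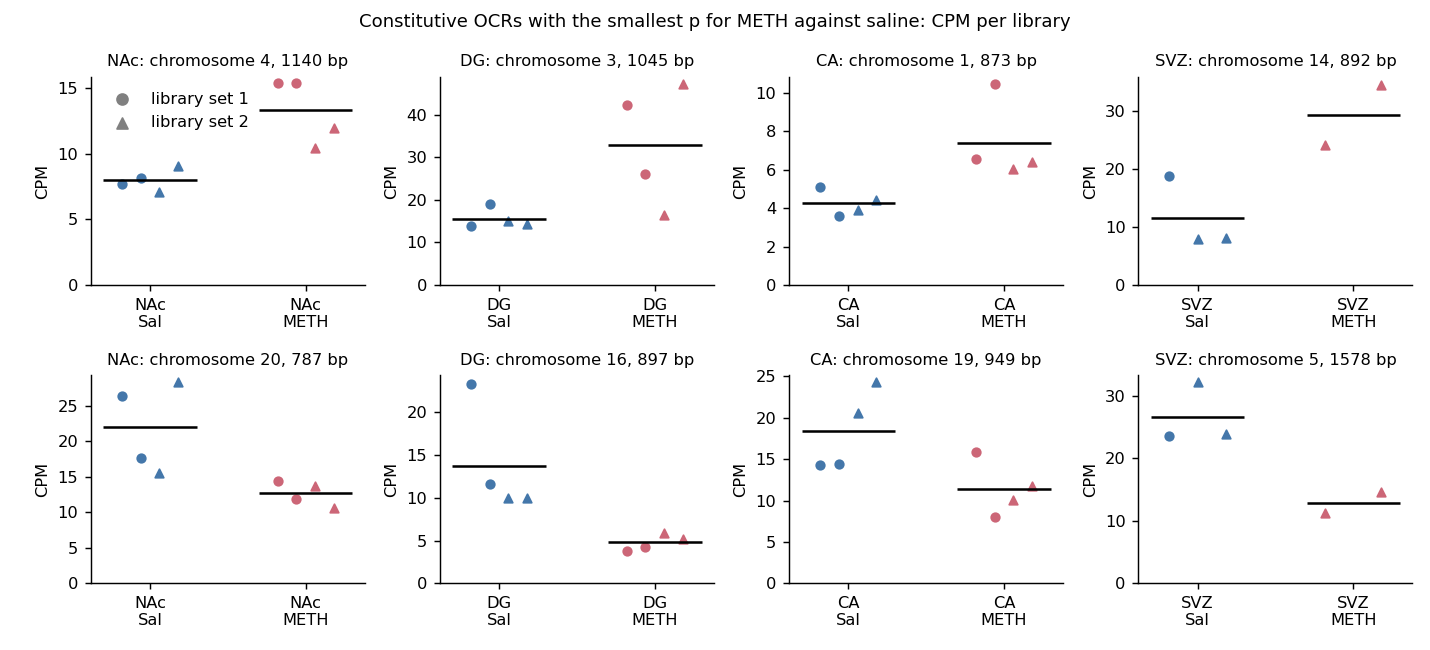
CPM (y axis) of the 8 constitutive OCRs with the smallest p for METH against saline in their region, with 1 point per library (circles for library set 1, triangles for set 2) and a line at the mean. The upper row holds the more and the lower row the less accessible OCR of NAc, DG, CA and SVZ, and 1 METH library overlaps saline in the DG chromosome 3 and the CA chromosome 19 panels.

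Differences between regions were compared in the 15 saline libraries with the same test, at an adjusted p under 0.01. The rule asked for a peak in all 4 regions, so OCRs without peaks in a region had been removed and the low counts here are a description. The 4 regions differed at 59 members (0.291%), against 7.51% of all OCRs. Within these 59 the highest mean was in NAc for 34, in SVZ for 10, in CA for 8 and in DG for 7, and the lowest mean in CA for 26, in DG for 18, in NAc for 8 and in SVZ for 7. Their ratio of the highest to the lowest region mean ran from 1.88 to 4.70 (median 2.27), against a median of 1.25 over all members. The count was 217 (1.07%, against 8.93% of all OCRs) with the replicate number as a replicate block and 150 (0.740%, against 9.21%) with the animal as the block, since NAc, DG and CA came from the same animals. It was 22 without NAc saline replicate 3 (4.80% of all OCRs called) and likewise without NAc saline replicate 4 (4.26%). It was 32 without DG saline replicate 4 (5.78%), 35 without CA saline replicate 1 (6.23%) and 39 without NAc saline replicate 1 (5.66%). The count rose to 65 without CA saline replicate 2 (9.72%) and to 87 without CA saline replicate 4 (8.57%). In the METH libraries it was 306 (1.51%, against 6.95% of all OCRs).

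In saline, more members were called higher in NAc with SVZ than in the hippocampal fields DG with CA than were called higher in any 1 region. The same order held over all OCRs. Members lower in 1 region than in the rest were not counted. With a further limit of 1 on the log2 fold change, 32 members were higher in NAc with SVZ than in DG with CA (8.4% of all OCRs called), and 14 lower (5.3% of all OCRs called). Against the mean of the other 3 regions, 9 members were higher in NAc (4.66% of all OCRs called), 1 in DG (0.155%), 1 in SVZ (0.399%) and 0 in CA (0.0814%). The CA count at an unadjusted p under 0.05, in either direction, was 960 (4.74% of members, against 19.8% of all OCRs), and DESeq2 called 3 members specific to CA, against 1.35% of all OCRs. With the members' own upper quartile NAc had 1 call, and DG and SVZ had 0. The NAc count ran from 1 without NAc saline replicate 4 to 14 without CA saline replicate 4. SVZ-specific members numbered 223 when the METH libraries, of which SVZ had 2, took the place of saline (1.10% of members, against 1.05% of all OCRs). The METH libraries had 92 members higher in NAc with SVZ than in DG with CA (7.37% of all OCRs called). That was fewer than their 223 SVZ-specific members but more than the 32 in saline, and 14 were lower (2.25%).

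The largest NAc excess was at chr7:79077410-79079070, with 37.5, 37.5, 48.9 and 47.2 CPM in NAc. DG had 12.1, 8.41, 17.1 and 14.9 CPM, CA 8.86, 7.16, 18.8 and 15.5 CPM, and SVZ 21.7, 21.7 and 42.3 CPM. NAc was above every DG and CA library, and SVZ saline replicate 3 reached the NAc range. NAc against the other regions gave a log2 fold change of 1.35 ± 0.24 (SE, edgeR adjusted p = 0.0012). The other NAc example, chr14:6758598-6759844, had 21.4 ± 2.28 CPM in NAc, 8.09 ± 1.53 in DG, 7.18 ± 0.410 in CA (SD, n = 4 each) and 15.5 ± 4.60 in SVZ (SD, n = 3). Its log2 fold change was 1.15 ± 0.18 (SE, edgeR adjusted p = 0.000384).

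The member called for DG, chr8:109865320-109866830, was also high in CA. It had 25.4, 35.5, 23.2 and 34.2 CPM in DG, 26.0, 24.8, 22.4 and 33.0 CPM in CA, 12.1, 12.5, 9.34 and 8.71 CPM in NAc and 9.81, 14.8 and 8.86 CPM in SVZ. DG and CA overlapped, and both were above all libraries of the other regions. DG against the rest gave 1.01 ± 0.18 (SE, edgeR adjusted p = 0.0094), and NAc with SVZ against DG with CA -1.36 ± 0.17 (SE, edgeR adjusted p = 2.4e-05). The call for DG was lost with the animal as block, where the log2 fold change of 0.98 fell short of 1 (edgeR adjusted p = 0.0089), and with TMM (0.99, edgeR adjusted p = 0.015), and with 1 library left out its edgeR adjusted p ran from 0.0036 to 0.053. No member passed for CA, and the one with the smallest p, chr8:36353762-36354948, showed the same pattern, with means of 24.6 ± 3.46 CPM in CA, 22.8 ± 1.72 in DG, 9.47 ± 1.81 in NAc (SD, n = 4 each) and 11.6 ± 2.42 in SVZ (SD, n = 3). Its log2 fold change for CA against the rest was 0.86 ± 0.16 (SE, edgeR adjusted p = 0.0092), short of the limit of 1.

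The member called for SVZ, chr6:50195112-50196120, was also high in NAc. It had 29.4, 19.3 and 19.6 CPM in SVZ, 18, 15.6, 17.4 and 21.3 CPM in NAc, 11.2, 7.58, 6.49 and 6.66 CPM in DG, and 9.28, 4.53, 6.47 and 7.16 CPM in CA. SVZ and NAc overlapped and neither overlapped DG or CA. Its SVZ log2 fold change was 1.19 ± 0.22 (SE, edgeR adjusted p = 0.010), just under the threshold. The SVZ call was lost with the animal as block (1.10, edgeR adjusted p = 0.019) and with TMM (1.18, edgeR adjusted p = 0.013), and with 1 library left out its edgeR adjusted p ran from 0.0076 to 0.080. Its difference of NAc with SVZ from DG with CA was 1.45 ± 0.19 (SE, edgeR adjusted p = 3.67e-05). The largest difference in that direction was at chr2:113309591-113310396, with 12.6 ± 2.13 CPM in NAc (n = 4), 13.3 ± 6.14 in SVZ (n = 3), 4.34 ± 1.24 in DG (n = 4) and 3.97 ± 0.921 in CA (SD, n = 4). Its log2 fold change was 1.65 ± 0.23 (SE, edgeR adjusted p = 5.18e-05).

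In the hippocampal direction the largest difference was at chr2:1660372-1661164. NAc had 6.04, 9.78, 12.3 and 8.86 CPM, SVZ 5.80, 3.91 and 7.09 CPM, DG 27.8, 16.5, 29.9 and 23.5 CPM, and CA 18.1, 6.11, 47.2 and 33.9 CPM. CA saline replicate 2 was as low as NAc and SVZ, while the other hippocampal libraries were above them all. The log2 fold change was -1.82 ± 0.33 (SE, edgeR adjusted p = 0.000573).

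**Figure D5:**
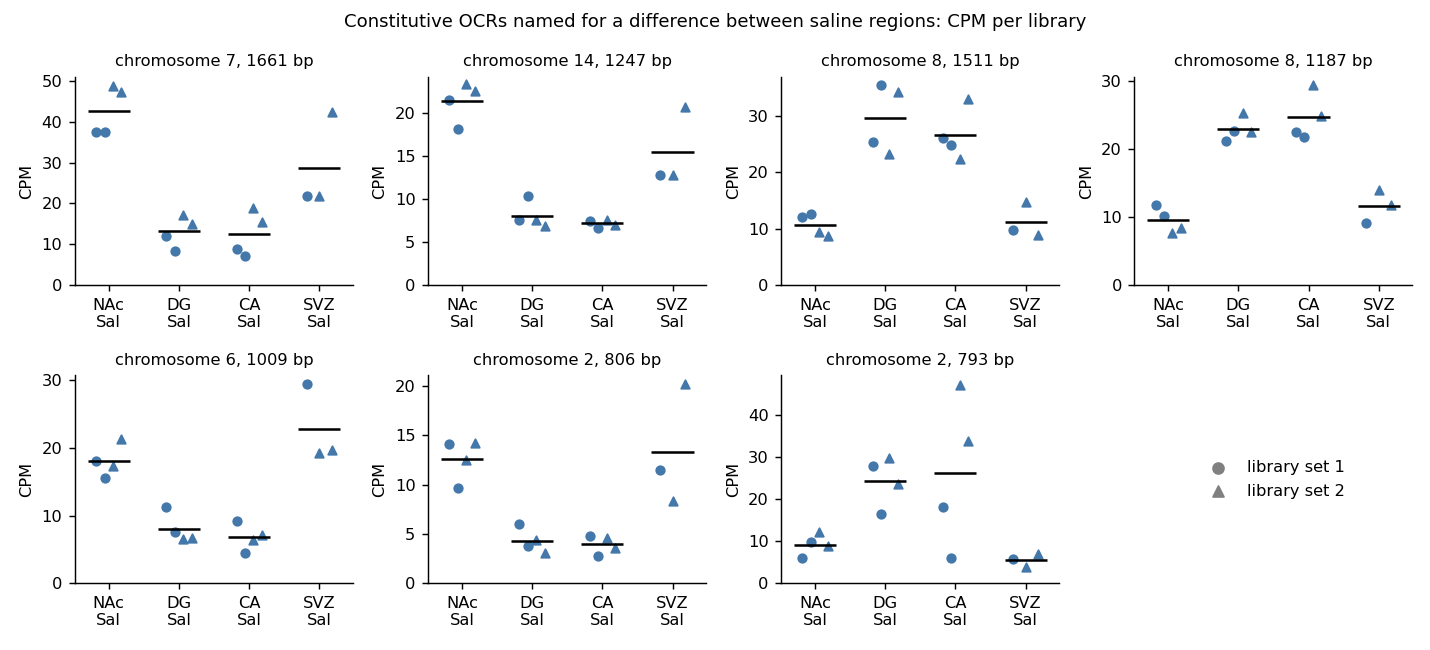
CPM (y axis) in the saline libraries of each region for the 7 constitutive OCRs named for a regional difference, with 1 point per library (circles for library set 1, triangles for set 2) and a line at the mean. NAc and SVZ are high together in 4 panels and DG and CA in the other 3, where CA saline replicate 2 (6.11 CPM) is the one low hippocampal point, in the chromosome 2 panel of 793 bp.

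Of 5 loci that the study names as DARs after METH, 1 was constitutive. The OCR named for Tiam2, a guanine nucleotide exchange factor of Rac, at chr1:44418133-44419600, had a peak in all 29 libraries. In DG it had 19.2, 19.5, 18.2 and 22.9 CPM in saline and 6.97, 18, 20.2 and 7.05 CPM in METH. METH replicates 1 and 4 were far below saline and the other 2 at or near its range, and the log2 fold change was -0.61 ± 0.35 (SE, edgeR adjusted p = 0.495). The edgeR adjusted p was at least 0.9999 in NAc, CA and SVZ. The study reports this OCR as losing accessibility in NAc and DG and gaining it in CA after METH. CA saline replicate 2 was again low, at 4.73 CPM against 13.2, 21.1 and 23.5 CPM. The OCR named for Gabrb1, a GABA-A receptor subunit, at chr14:38804098-38805271, had peaks in 25 libraries and lacked them in NAc METH replicates 2 and 4 and SVZ saline replicates 1 and 3. The OCR named for the transcription factor gene St18, at chr5:12563213-12564343, had peaks in 22 libraries. That for Neto1, a kainate receptor auxiliary subunit, at chr18:83486473-83487024, had them in 21, and that for the cell adhesion gene Sdk2, at chr10:102306830-102307559, in 10. The place of these and all other members relative to genes was not analysed here.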

How the data were processed

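ATAC-seq was made by the study with the omni-ATAC protocol for frozen tissue. Per the labels and the study's methods, reads were processed with AIAP at default parameters on rat build rn6, peaks were called in each library, and OCRs were merged with bedtools. For versions and the read counter, nothing was found in the sources used here. Counts in the deposited table are raw, one row for each of 98237 OCRs. The deposited peak lists hold each peak's fold enrichment over local background (a ratio), its −log10 q-value and its summit position as an offset in bp, all computed by the authors. All deposited peaks had a −log10 q-value of at least 2.00.

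Groups came from the sample titles. Members were found by intersecting OCRs with peaks. Counts were scaled with edgeR's upper quartile over all OCRs (R 4.3.3, edgeR 4.0.16), and CPM refers to those sizes. Log2 CPM used a prior count of 2. METH was compared with saline in 1 quasi-likelihood fit over all 8 groups, and regions in a fit over the 15 saline libraries. The SE of a log2 fold change is its size over the square root of the F statistic. P-values were adjusted over all OCRs tested. Shares were compared with exact permutation tests (scipy 1.17.1). Scripts were tested on simulated data. Alternatives were TMM, the members' own upper quartile, a mean CPM of 1, DESeq2 1.42.0, RUVr factors, replicate blocks, stricter peaks (−log10 q-value above 5, or an overlap of 50% of the peak), and leaving out each library. Library set and animal, read from peak names, were added as terms after the data were seen.

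Members and comparisons were chosen with earlier results of these data known. The named OCRs were the 3 highest and 3 lowest by CPM per kb, the smallest p in each direction and region for METH, up to 2 per region and direction between regions, the 2 least and 2 most variable, and those at 5 loci of the study. That replicates of a group were separate animals rests on numbers in the peak names, and otherwise p-values measure only the spread between libraries, which may be technical. METH and saline libraries with equal numbers come from different animals, and in NAc, DG and CA, but not in SVZ, from 1 library set. Their deviations from group means correlated over members at 0.17 to 0.80 in CA, 0.02 to 0.39 in NAc, -0.43 to 0.25 in DG (4 pairs each) and -0.17 to -0.15 in SVZ (2 pairs). The labels do not give equal numbers as pairs. Saline libraries of NAc, DG and CA with equal numbers share an animal, and those of SVZ do so for replicate 1 alone. Deviations from group means correlated over members between regions of 1 animal with a median r of 0.10 (39 pairs, -0.64 to 0.80). Coordinates are rn6, from 1. No rn6 sequence or annotation was used, so no gene placement, motif or sequence is given.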

Additional observations from a re-analysis of the deposited data

Results flagged for a closer look

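In groups of 4 libraries, 45 sets of values named in the text were checked for a library far from the others, of which chance marks about 1 in 20, and 2 were marked. In DG, the value of 23.3 CPM at chr16:4977757-4978653 in saline replicate 1 stood apart from 10.0 to 11.6 CPM in the other 3 saline libraries. In CA, the value of 10.5 CPM at chr1:59202574-59203446 in METH replicate 2 stood apart from 6.03 to 6.56 CPM in the other 3 METH libraries. The METH effects on the share of counts were also compared between each pair of regions with exact permutations within regions, and the smallest adjusted p over the 6 pairs was 0.574.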

How the results depend on the processing

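The 20270 members became 18896 with peaks of −log10 q-value above 5, stayed 20270 with 50% of the peak overlapped, and numbered 20271 to 21622 when 1 library was left out. With 5 RUVr factors DARs among members numbered 1738 in DG and 36 in SVZ, and SVZ had 1 with DESeq2, 1 with the replicate block and 0 to 1 when 1 library was left out. The median log2 fold change in SVZ was 0.12 with the members' own upper quartile. The share difference in CA was 2.86 points in set 2 and -3.33 to 1.54 points when 1 library was left out. In saline, members that differed between regions numbered 29 with the members' own upper quartile, 217 with the replicate block, 150 with the animal as block, 158 with library set as a covariate, 306 in METH libraries, 267 with DESeq2, and 22 to 87 without 1 library. Those differing between NAc with SVZ and DG with CA numbered 106 in METH libraries. NAc-specific members numbered 5 with TMM, 1 with the members' own upper quartile, 19 with the animal as block, 15 with library set, 18 in METH libraries and 1 to 14 without 1 library. DG-specific members numbered 0 with TMM, the members' own upper quartile, the animal block, METH libraries and DESeq2, and 0 to 2 without 1 library. CA-specific members numbered 1 with the replicate block, 3 in METH libraries, 3 with DESeq2 and 0 to 1 without 1 library. SVZ-specific members numbered 0 with TMM, the members' own upper quartile and the animal block, 223 in METH libraries, 5 with DESeq2 and 0 to 4 without 1 library. Over all OCRs, those differing between regions were 2.93%, 8.93%, 9.21%, 9.50%, 6.95% and 14.7% under the same alternatives and 4.26% to 9.72% without 1 library. Across the alternatives 1.66% to 6.70% of all OCRs were NAc-specific, 0% to 1.31% DG-specific, 0% to 1.35% CA-specific and 0% to 1.53% SVZ-specific. The causes were not tested. Of the named OCRs' alternatives, 289 kept their direction and side of the threshold, 51 fell short of it and 3 passed it. The replicate block of METH and saline libraries with equal numbers left DARs at 0 in NAc, DG and CA. With it, 220 members of NAc had an unadjusted p under 0.05 (1.09%, against 4.55% of all OCRs). In DG 1354 members did (6.68%, against 4.88%), and in SVZ 1980 did (9.77%, against 6.33%). The library with the fewest peaks was the one library without a peak for 1352 OCRs, and DG saline replicate 1, with 78207 peaks, for 302, and the part of depth was not tested.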
